A study of Homo sapiens with 5 samples.

Results

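First-intron peaks are the H2A-K130ac peaks that the deposited gene annotation places in intron 1 of a transcript. They were collected by that label alone from the annotated peak lists of 2 C4-2B libraries, 1 treated with abiraterone and 1 with Romidepsin. The abiraterone list held 7452 of them among 67806 peaks, and the Romidepsin list held 9850 among 91398, so that 17302 of 159204 peaks are described here. Peaks lay in the first introns of 3001 genes in the abiraterone list and 3781 in the Romidepsin list, with median gene lengths of 113 and 98.2 kb, and PDE4D (33 peaks) and OPCML and RORA (42 each) held the most.

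H2A-K130ac is the acetylation of lysine 130 of histone H2A. The study found that several acetyltransferases could place it and took KAT2A as its model enzyme. It proposed HDAC1 and HDAC2 as the enzymes that remove it. C4-2B is an androgen-independent prostate cancer line derived from LNCaP cells; its sample labels name breast cancer instead and repeat the growth and treatment text of VCaP, another prostate cancer line, so that the dose and time of both treatments are not given here. Abiraterone blocks CYP17A1 and with it androgen synthesis, and Romidepsin inhibits HDAC1 and HDAC2. The series has 5 samples, and its 3 VCaP samples were not analysed here, nor was any untreated C4-2B library. With 1 library per treatment, no difference between the treatments was tested, and every interval below covers counting error only.

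The first intron lies next to the exon in which transcription begins. In many human genes it is the longest intron, and it often holds enhancers and other elements that act on the gene's own promoter or its alternative promoters. An acetylated histone tail generally accompanies open, active chromatin, although what acetylation does at lysine 130 of H2A is known mainly from the study itself. The annotation behind these lists gave each peak 1 label from 1 transcript and let a promoter label, for peaks within 3 kb of a start site, go before an intron label. The absence of first-intron peaks nearer than 3 kb is therefore set by the labelling, and a first intron of the transcript named can be a later intron of another transcript of that gene.

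First introns took up 10.99% of the peaks after abiraterone, with an exact 95% binomial interval of 10.8 to 11.2%. After Romidepsin the share was 10.8% (10.56 to 10.98%). Of the peaks in any intron, 27.8% of 26846 abiraterone peaks (27.2 to 28.3%) and 28.4% of 34641 Romidepsin peaks (28.0 to 28.9%) were in the first. Both shares were close in the 2 lists although their peak numbers were not. The share of intron peaks in the first fell with the number of introns that a transcript has. This order is set in part by the label, since more of the introns are then later ones. For transcripts of 2 to 4 introns the share was 42.2% in the abiraterone list and 41.9% in the Romidepsin list. For those of 20 or more it was 19.5% and 19.6%. Among chromosomes 1 to 22 and X, chromosome 11 had the highest share of its peaks in first introns in both lists, with 13.7% (12.7 to 14.9%) for abiraterone and 13.8% (12.8 to 14.8%) for Romidepsin. The lowest shares among these were 7.997% on chromosome 16 for abiraterone (6.70 to 9.45%) and 9.41% on chromosome 2 for Romidepsin (8.80 to 10.0%). Chromosome Y, with 27 and 36 peaks of any label, had 1 and 2 in first introns.

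The distance to the nearest annotated start site was read from the deposited annotation. Its median over first-intron peaks was 23504.5 bp in the abiraterone list (95% interval of the median 22506 to 24358) and 21424.5 bp in the Romidepsin list (20687 to 22117). Peaks in later introns were farther away, at medians of 44155 bp and 39753 bp. A first intron precedes the later introns of its transcript, so this order follows in part from the label itself. The middle 50% of first-intron peaks lay between 9782 and 55352 bp for abiraterone and between 9084.5 and 52204.5 bp for Romidepsin. The distances thus spread widely. Per kb, however, first-intron peaks were densest in the band from 3 to 10 kb, next to the promoter window. For abiraterone, the wider bands of 10 to 30 and 30 to 100 kb held 32.1% and 29.4%. For Romidepsin they held 32.6% and 27.9%. Between 3 and 10 kb from a start lay 25.6% of the abiraterone first-intron peaks (24.6 to 26.6%), against 13.0% of its later-intron peaks. In the Romidepsin list the same band held 27.8% of first-intron and 14.6% of later-intron peaks. Beyond 300 kb lay 1.70% and 1.39% of first-intron peaks, against 5.17% and 4.90% of later-intron peaks. The order of first and later introns, which the label sets in part, was thus the same in both lists at both ends of the range.

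**Figure D1:**
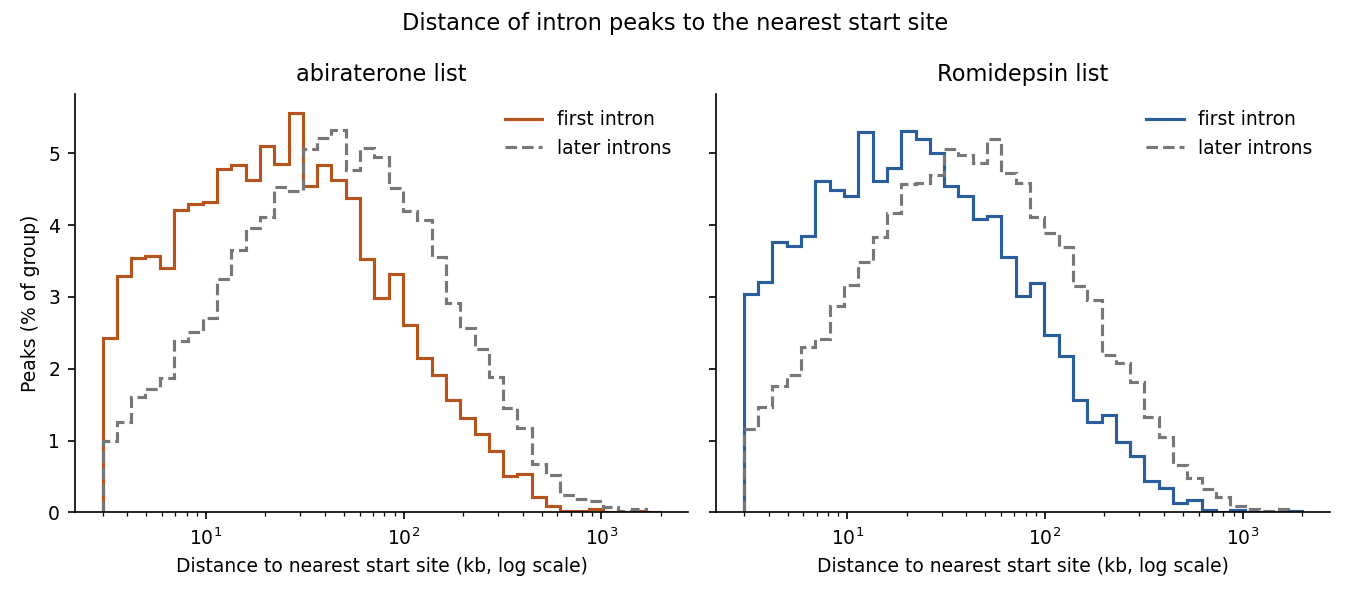
Share of intron peaks (%, y axis) by distance to the nearest annotated start site (kb, log scale, x axis) in the abiraterone list (left) and the Romidepsin list (right); solid lines are first introns and dashed lines later introns. In both panels the solid line lies left of the dashed line, with medians of 23504.5 against 44155 bp and 21424.5 against 39753 bp, and both begin at 3 kb, where the promoter label ends.

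The nearest start was not always that of the gene whose intron held the peak. The distances count only starts of genes with an identifier, so that for 427 abiraterone and 554 Romidepsin peaks, whose host transcripts have none, the own start was left out. The median distances of these peaks were 79209 and 56547.5 bp. Over the other first-intron peaks the medians were 22094 bp for abiraterone and 20456 bp for Romidepsin. Among these the nearest start belonged to the host gene for 87.8% and 87.0%, at median distances of 21424 and 19869 bp. Where the start of another gene was nearer, the medians were 28445 and 26176 bp. The limits of the host transcript itself were known for 84.1% of the first-intron peaks in each list. Measured from that transcript's own start, the medians were 32363 bp and 29988 bp. On the scale of transcript length, the median first-intron peak lay 21.1% of the way along its transcript in the abiraterone list and 21.8% in the Romidepsin list. Later-intron peaks lay at 57.2% and 58.3%, an order that the numbering of introns largely sets. The host transcripts were long, with median lengths of 186205 bp and 170899 bp and a median of 8 introns in both lists.

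The largest distances belonged to peaks in transcripts without a gene identifier, whose own starts were not counted. In the abiraterone list the largest was 1440284 bp, to the start of PRMT6, in uc001dva.3 at chr1:106158382-106158983 (hg19), and in the Romidepsin list 2181267 bp, to the start of ARAP2, in uc003gsm.1 at chr4:33893942-33894190. Among host genes with an identifier, NALF1 held the farthest peak of both lists, at 562326 and 605726 bp. At the near end, the closest were 3011 bp from the start of CDC42BPA, a kinase that acts with the small GTPase CDC42, and 3005 bp from the start of SPRR2B, with SPRR2A, a cornified-envelope protein gene, as the host. These extremes were listed for both lists by rank, after their values were known.

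First-intron peaks were narrow. Their median width was 340 bp in the abiraterone list (336 to 343) and 344 bp in the Romidepsin list (341 to 347). Later-intron peaks had medians of 337 and 344 bp, and all peaks 339 and 349 bp, so that the width did not set first introns apart. The widths had a pronounced lower mode: 981 abiraterone peaks (13.2%) and 1369 Romidepsin peaks (13.9%) were exactly 125 bp wide, the narrowest width present. Below 200 bp lay 26.6% of abiraterone first-intron peaks (25.6 to 27.6%) and 23.8% of Romidepsin ones (22.9 to 24.6%), against 27.0% and 23.3% in later introns. At least 800 bp wide were 2.36% (2.03 to 2.73%) and 2.86% (2.54 to 3.21%), against 2.31% and 2.50%.

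**Figure D2:**
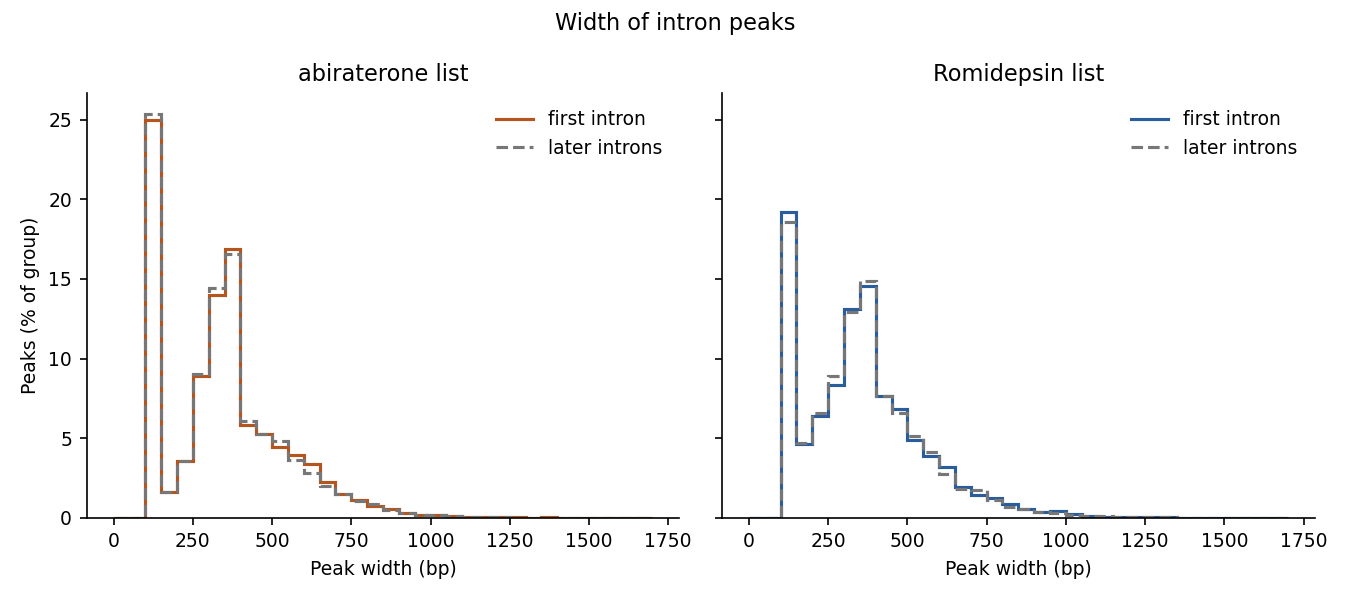
Share of intron peaks (%, y axis) by peak width (bp, x axis, bins of equal width) in the abiraterone list (left) and the Romidepsin list (right); solid lines are first introns and dashed lines later introns. The lines nearly coincide in both panels, with a narrow mode that begins at 125 bp and a broader one around the medians of 340 and 344 bp.

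The widest first-intron peak of the abiraterone list measured 1524 bp and lay in ZBTB20, a zinc-finger repressor, at chr3:114784568-114786091, 4170 bp from that gene's start. The next was a 1379-bp peak in SOCS7, a suppressor of cytokine signalling, 5594 bp from the start, and it was overlapped by a Romidepsin peak. In the Romidepsin list the widest measured 1685 bp and lay in CRACD, an actin-capping regulator, at chr4:57039871-57041555, 3510 bp from the start. The second, of 1591 bp, lay in TMEM132E, 42986 bp from the start. The widest 5 of each list had folds of at most 4.30, so that these few were not the highest ones. Over all 282 Romidepsin first-intron peaks of at least 800 bp, however, the median fold was 3.44, against 2.61 over all first-intron peaks there. For the 176 such abiraterone peaks it was 2.85, against 2.83.

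Peak height was given as a fold over control by the authors' peak caller. It had a median of 2.83 in the first introns of the abiraterone list and 2.61 in those of the Romidepsin list. The medians over later introns and over all peaks were the same within each list. Many folds were tied: 14.7% of abiraterone and 26.9% of Romidepsin first-intron peaks had the commonest fold of their group. Equal medians therefore do not show equal heights, and medians such as those of the wide peaks above can move in steps. Folds were not compared between lists, because they were not normalized between the libraries. A false discovery rate q of 0.01 or less, a −log10 q of at least 2, was reached by 1815 abiraterone first-intron peaks, or 24.4% (23.4 to 25.3%), where 24.9% of all peaks in that list reached it. In the Romidepsin list 298 did, or 3.03% (2.70 to 3.38%), where 2.73% of all peaks did. Both shares were near those of their whole list, and the lists themselves lay far apart. Many peaks had the same q, however, so the shares depend strongly on where the threshold falls. The 95th percentile of −log10 q over Romidepsin first-intron peaks was 1.96, just under 2. Over 5 bands of distance from the start, the share ranged from 23.1% to 27.6% in the abiraterone list and from 2.19% to 3.71% in the Romidepsin list, with overlapping intervals and no steady course.

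The highest folds belonged to peaks of 170 to 531 bp. In the abiraterone list the first was 10.4, in uc001alp.1 at chr1:5652340-5652548, 28209 bp from the nearest start. The second was 9.38, in uc001ucw.1 at chr12:123210260-123210509, and the third 8.92, in BTD, which encodes biotinidase, at chr3:15653283-15653456, 9807 bp from its start. Peaks in RBFOX1, a neuronal splicing regulator (fold 8.55), and TMEM150C (fold 8.50) came next. In the Romidepsin list the highest fold, 9.14, was in CFI, the gene of complement factor I, at chr4:110692877-110693051. It was followed by CELF2, an RNA-binding splicing regulator, and SLC6A20, an amino acid transporter, each with a fold of 7.84, and by uc003xjb.3 on chromosome 8, nearest to the growth factor gene NRG1, with 7.80. UBE2W, a ubiquitin-conjugating enzyme, had 7.54. None of these 10 peaks was overlapped by a peak of the other list, where 4.04% of all abiraterone and 2.9% of all Romidepsin peaks were.

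Overlap between the lists was rare. Of the abiraterone first-intron peaks, 286 (3.84%, 3.41 to 4.30%) shared at least 1 bp with a Romidepsin peak, where 4.04% of all abiraterone peaks did. Of the Romidepsin first-intron peaks, 281 (2.85%, 2.53 to 3.20%) shared a base with an abiraterone peak, where 2.9% of all Romidepsin peaks did. In later introns the shares were 3.99% and 2.98%. First introns thus overlapped at the rate of their lists. Overlapped peaks were wider, with medians of 382.5 bp in the abiraterone list and 392 bp in the Romidepsin list, against 340 and 344 bp over all first-intron peaks. Wider peaks also have more bases with which to overlap, and this was not taken into account.

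First-intron peaks of both lists met in 291 overlapping pairs in 247 host genes, and 94 pairs overlapped by at least 50% of both peaks. A −log10 q of at least 2 on both sides was found in 4 pairs, where 24.9% of all abiraterone and 2.73% of all Romidepsin peaks reached it. HIVEP3, a zinc-finger transcription factor gene, held the most pairs, 5, and GULP1, an engulfment adaptor gene named here after its value was seen, held 3. Among the pairs that overlapped by at least 50% of both, the one with the highest product of folds lay in DDHD1, which encodes a phospholipase. The abiraterone peak at chr14:53546572-53546993 (fold 3.40) lay wholly within the Romidepsin peak at chr14:53546475-53547009, 13389 bp from the start. SPOCK3, an extracellular matrix proteoglycan gene, followed with 562 shared bp and folds of 2.85 and 6.02. F11-AS1, a long non-coding RNA antisense to the clotting factor gene F11, had a pair that began at the same base, chr4:187340840, with folds of 4.48 and 3.77. The pairs in TOX2, an HMG-box gene, and SLC9B1, a sodium/proton exchanger gene, had folds of 4.72 and 3.48 and lay 6055 and 4945 bp from the start.

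At the level of genes the lists met more often. The host genes were 15.5% of the 19372 genes named anywhere in the annotation of either list for abiraterone and 19.5% for Romidepsin. A first-intron peak was present in both lists for 1951 genes, which were 65.0% of the abiraterone host genes and 51.6% of the Romidepsin ones. These shared genes had a median length of 152 kb, against 63.1 kb for genes of the abiraterone list alone and 59.1 kb for those of the Romidepsin list alone. Gene length, which was drawn from the annotation of these same peaks, thus moved with sharing, and its part in the sharing was not tested.

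Peaks were unevenly distributed over the host genes. Exactly 1 first-intron peak was held by 1413 abiraterone host genes (47.1%) and 1872 Romidepsin host genes (49.5%). At least 5 were held by 351 and 486 genes, which together contained 38.3% and 42.9% of the first-intron peaks, and at least 20 by 14 and 25 genes. The 10 genes with most peaks contained 3.41% and 3.48%. The number of peaks rose with gene length across host genes (Spearman's rho 0.466 over 2766 abiraterone and 0.471 over 3464 Romidepsin genes with known limits, a description across genes of 1 library). Those limits came from the transcripts nearest to these same peaks, so that genes with more peaks can appear longer. Length and count are therefore not independent here. Of the genes shorter than 50 kb, 4.73% held an abiraterone and 7.28% a Romidepsin first-intron peak. Of the 287 genes of 500 kb or more, 71.1% (65.5 to 76.3%) and 74.2% (68.7 to 79.2%) did. Protein-coding genes held 87.3% and 87.2% of the first-intron peaks and long non-coding RNA genes 5.25% and 5.85%.

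The genes with most first-intron peaks, 10 from each list, came to 16 in all, because RORA, ASIC2, DPP10 and OPCML stood among the leading 10 of both. They ranged from 383 kb (KCNIP1) to 2305 kb (CNTNAP2) in length, where the median gene measured 22.7 kb. Since these genes were chosen by their counts, the counts below are a description. Exact 95% Poisson intervals treat peaks as independent, which neighbouring peaks are not.

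**Figure D3:**
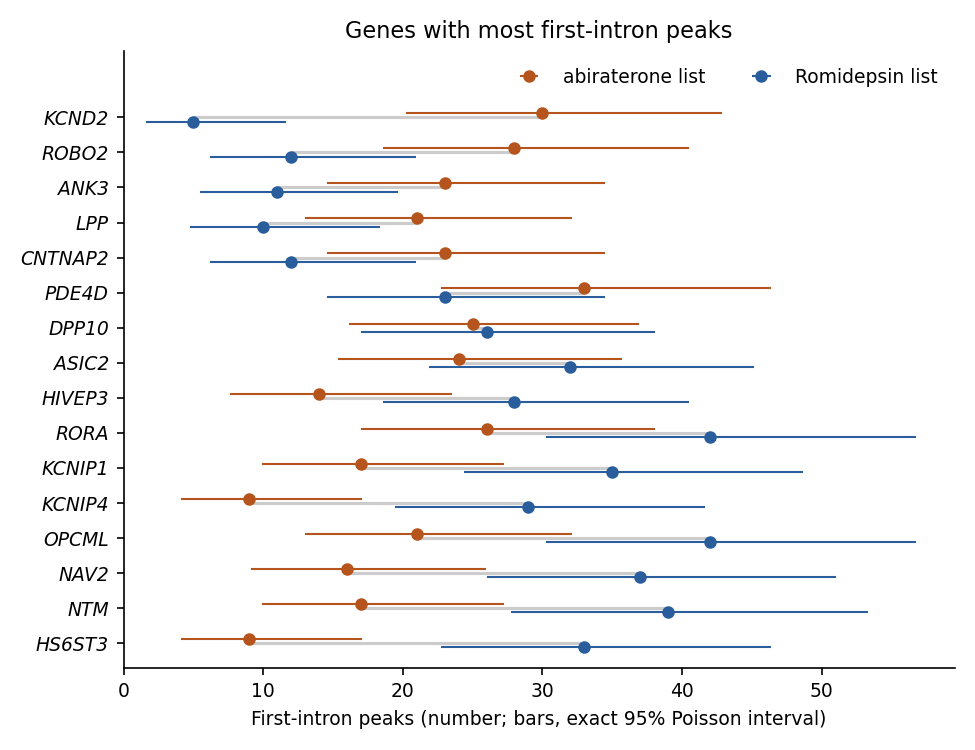
Number of first-intron peaks (x axis) in the 16 genes that were among the 10 with most peaks in either list, ordered by the difference between lists; points are counts of 1 library and bars their exact 95% Poisson intervals. KCND2 stands at one end with 30 abiraterone and 5 Romidepsin peaks, HS6ST3 at the other with 9 and 33, and DPP10 is nearly level with 25 and 26.

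Several of the 16 encode channels or proteins that bind to them. KCND2, a pore-forming subunit of A-type potassium channels at chr7:119913722-120390387, had 30 first-intron peaks in the abiraterone list and 5 in the Romidepsin list. These were 0.403% (0.272 to 0.574%) and 0.0508% (0.0165 to 0.118%) of each list's first-intron peaks. KCND2 was chosen for its count and its peaks are not independent, so these intervals do not test a difference. Of the KCND2 peaks, 11 in the abiraterone list and 0 in the Romidepsin list had a −log10 q of 2 or more. The 11 was the highest such count of any gene in the abiraterone list. Among all peaks, 24.9% in the abiraterone list but only 2.73% in the Romidepsin list reached that q. The contrast of 11 and 0 is therefore not particular to KCND2. KCNIP1, a calcium-binding protein that associates with such channels, had 17 and 35 peaks, and KCNIP4, of the same family, had 9 and 29. DPP10, an inactive peptidase relative that is an auxiliary subunit of these channels, had 25 and 26. ASIC2, an acid-sensing sodium channel subunit, had 24 and 32. NALF1, an auxiliary factor of the sodium leak channel, which was named for at least 5 peaks in each list, had 17 and 24.

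The ratio of abiraterone to Romidepsin peaks of any label was set beside that within 1 Mb on both sides for the 16 genes. In 8 of them the ratios of gene and flanks were within 1.5 times of each other, as in NTM (37 and 67 peaks in the gene, 58 and 100 in its flanks) and HIVEP3 (18 and 42, 49 and 102). In KCND2 the gene held 34 and 6 and the flanks 69 and 36. DPP10 was level inside the gene, with 37 in each list, and had 24 and 64 in its flanks. Over whole chromosomes the ratio of abiraterone to Romidepsin first-intron peaks was 0.757 genome-wide, and it ran from 0.412 on chromosome 20 to 1.39 on chromosome 3, with 1.08 on chromosome 7, where KCND2 lies. HS6ST3, which encodes a heparan sulfate sulfotransferase, had 9 and 33 peaks in the gene, all in first introns, and 37 and 61 in its flanks. The part of these regional differences in the gene counts was not tested. The chromosome and flank counts were added after the gene counts were seen.

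**Figure D4:**
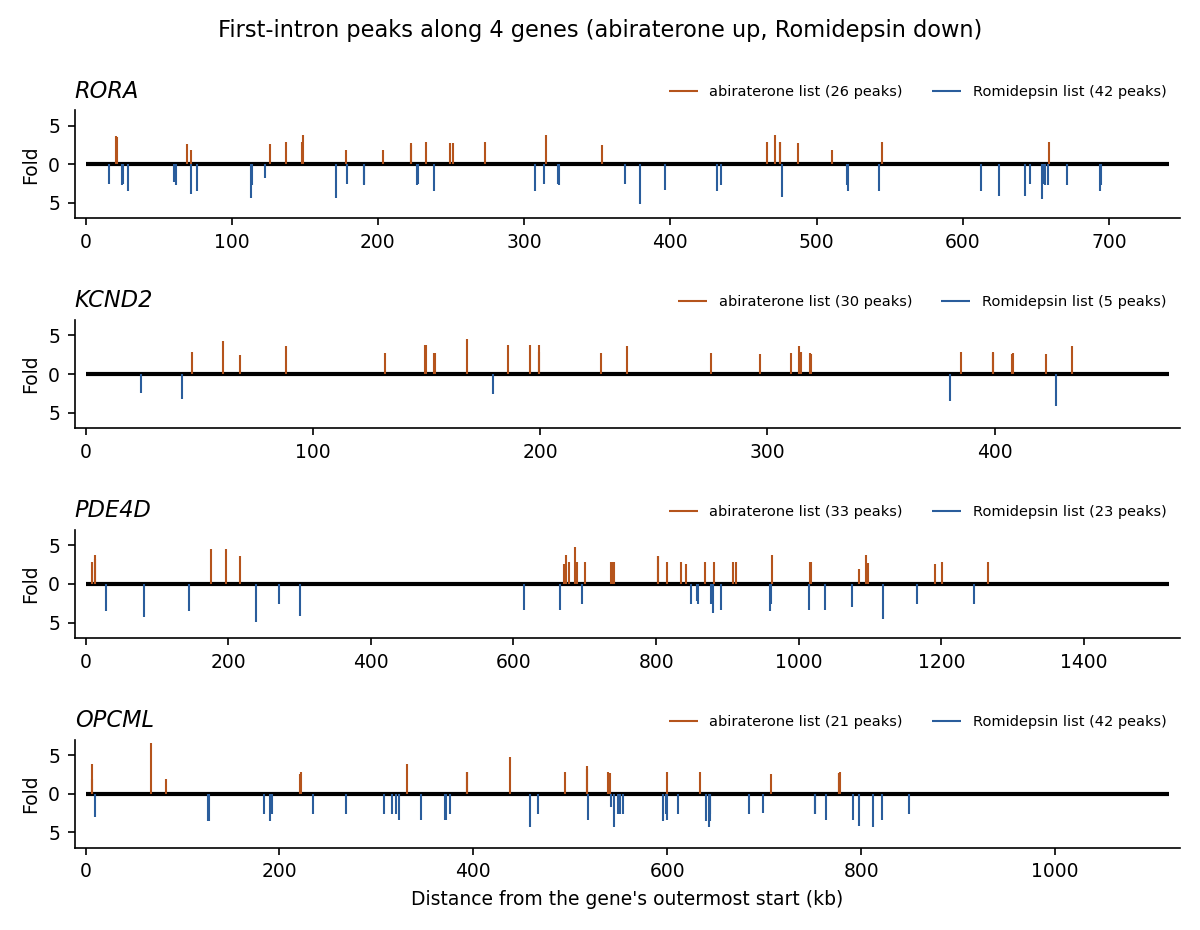
First-intron peaks along RORA, KCND2, PDE4D and OPCML, plotted by distance from the gene's outermost start (kb, x axis) and fold over control (y axis), with abiraterone peaks above the line and Romidepsin peaks below it. The peaks are spread along the genes, from 21.1 to 659 kb (abiraterone) and 16.05 to 695 kb (Romidepsin) in RORA, and KCND2 shows 30 peaks above the line and 5 below.

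Genes of cell adhesion and axon guidance made up another group. OPCML, a membrane-anchored adhesion protein of the IgLON family, had 21 first-intron peaks in the abiraterone list and 42 in the Romidepsin list, and its neighbour NTM, of the same family, had 17 and 39. ROBO2, a receptor for Slit guidance cues, had 28 and 12. CNTNAP2, an adhesion protein of the neurexin family, had 23 and 12, and it held more peaks in later introns, 50 and 38. LRRC4C, a ligand of netrin-G, had 20 in each list, and DLG2, a synaptic scaffold, had 20 and 19. OPCML peaks were spread from 6.44 to 778 kb from the gene's outermost start in the abiraterone list and from 9.36 to 850 kb in the Romidepsin list, along a gene of 1118 kb. The host labels of these peaks named 2 transcripts, each with its own first intron.

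The other genes of most peaks had various roles. PDE4D, a cyclic AMP phosphodiesterase, led the abiraterone list with 33 peaks and had 23 in the Romidepsin list, and its first-intron peaks came from the first introns of 6 transcripts. RORA, a nuclear receptor, had 26 and 42, which made it one of the leading genes in the Romidepsin list together with OPCML. ANK3, the membrane adaptor ankyrin-G, had 23 and 11, and LPP, a focal adhesion protein, had 21 and 10. NAV2, a neuron navigator, had 16 and 37, HIVEP3 had 14 and 28, and DAB1, the adaptor of reelin signalling, had 20 and 23. Genes were thus found on both sides of the overall ratio, and 203 genes held at least 5 first-intron peaks in each list.

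**Figure D5:**
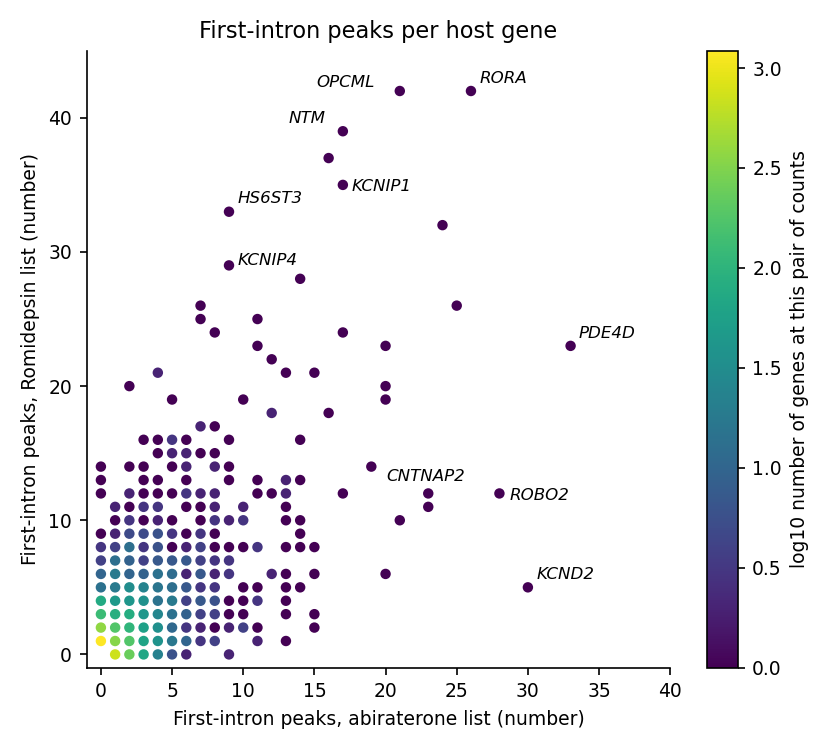
First-intron peaks per host gene in the abiraterone list (x axis) against the Romidepsin list (y axis), both as numbers; each point is a pair of counts and its colour the log10 number of genes with that pair. Most of the 4831 genes lie near the origin, and KCND2 (30 and 5) and HS6ST3 (9 and 33) lie toward opposite axes.

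Groups of genes that bear on the study were read against the whole annotation, in which 15.5% of genes held an abiraterone and 19.5% a Romidepsin first-intron peak. Of 35 genes of sterol and fatty acid synthesis in the annotation, 4 (11.4%, 3.20 to 26.7%) and 7 (interval 8.44 to 36.9%) held one. SCD5, a stearoyl-CoA desaturase, had 3 peaks in the abiraterone and 5 in the Romidepsin list. ACACA, the cytosolic acetyl-CoA carboxylase, had 1 in each list, ACLY, which makes acetyl-CoA from citrate, had 0 and 2, and ACACB had 0 and 1. Of 24 genes of androgen synthesis, 2 (8.33%, 1.03 to 27.0%) and 6 (interval 9.77 to 46.7%) held a peak. SCARB1, a receptor for cholesterol uptake from lipoproteins, had 2 and 5, SRD5A3, a steroid reductase family member, had 1 and 2, and HSD17B2, which inactivates androgens, and POR, the electron donor of microsomal P450 enzymes, had 0 and 2 each. Both groups were near the share of all genes within their intervals.

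Of 26 acetyltransferases and deacetylases, 5 (19.2%, 6.55 to 39.4%) held an abiraterone and 8 (30.8%, 14.3 to 51.8%) a Romidepsin first-intron peak. HDAC4 had 1 and 6 peaks, the steroid receptor coactivator NCOA2 had 3 in each list, its relative NCOA3 had 0 and 4, and the acetyltransferase CREBBP had 3 and 2. Of 27 genes of the androgen response programme, 11 (40.7%, 22.4 to 61.2%) and 8 (29.6%, 13.8 to 50.2%) held a peak. The abiraterone interval lay above the 15.5% of all genes. It held the 31.3% of genes of 50 to 200 kb but not the 4.73% of shorter genes, and this list's median length lies near that boundary. PPARGC1A, a coactivator of mitochondrial biogenesis, had 3 and 14, and NR3C1, the glucocorticoid receptor gene, and PMEPA1, an androgen-induced gene, had 1 and 3 each. Of 34 prostate cancer drivers, 10 (29.4%, 15.1 to 47.5%) and 9 (26.5%, 12.9 to 44.4%) held a peak. ZFHX3, a tumour suppressor transcription factor, had 9 and 4, ERG, the ETS factor often fused in prostate cancer, had 2 and 8, KMT2C, a histone methyltransferase, had 2 and 3, and RB1 had 1 and 4. The androgen response programme and the drivers had median gene lengths of 60.1 and 76.2 kb, above the 22.7 kb of all genes, and the part of length in their shares was not tested.

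Among 44 long cell-adhesion genes, 36 (81.8%, 67.3 to 91.8%) held an abiraterone and 35 (79.5%, 64.7 to 90.2%) a Romidepsin first-intron peak, 273 and 323 peaks in all. Their median length was 963 kb. The shares of all genes of 500 kb or more, 71.1% and 74.2%, lay within both intervals. OPCML, NTM, ROBO2 and DLG2, described above, held the most peaks over both lists.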

How the data were processed

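Sonicated C4-2B chromatin was immunoprecipitated with an H2A-K130ac antibody, and 75-base paired-end reads were aligned with Bowtie 2. Peaks were called with MACS2, a version of MACS, by the authors, who deposited narrow peaks over input and, for the same peaks, annotated tables that lack the list's first peak, since it had become the header. The fold of each peak over control and its −log10 p- and q-values were deposited by the authors, as was a score that truncates a scaled −log10 p. The study's reporting summary describes broad peaks at a q of 0.01 against vehicle, whereas most peaks in these lists have a larger q. Whether the annotated lists hold pooled duplicates is not stated. The conservative and optimal annotated tables were identical, and the optimal ones were used. The submitters' processing notes name hg38, but the last peak on chromosome 1 ends at 249191832, beyond that chromosome's end in GRCh38, and the transcript names follow UCSC's annotation of hg19; coordinates are therefore given as hg19. A RefSeq table of GRCh38.p14 served only for gene names and types. No hg19 genome was used here, so that no peak sequence was read.

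Per the labels, each library was sequenced to between 40000000 and 50000000 reads; the lists give no read counts, so that the reads behind each peak are unknown. The host gene was taken from the intron label, gene limits from the outermost transcripts in the annotation columns, and genes without an identifier were kept by transcript name. Only transcripts named as nearest to a peak of either list gave limits, so that a gene with few peaks can appear too short. Shares carry exact (Clopper-Pearson) and counts exact Poisson 95% intervals; no test was made, because each treatment has 1 library. The counting was tested on simulated lists. The genes named were the 10 with most first-intron peaks in each list, hosts of the 5 highest folds in each, up to 10 genes with at least 5 in each list, the 4 leading members of each of 6 gene lists, and up to 5 sites shared by at least 50% of both peaks. Some of the genes this rule names are not reported here. The members and lists were chosen with earlier results of these data known. Python 3.11.15, numpy 2.4.6, pandas 2.3.3, scipy 1.17.1 and matplotlib 3.10.9 were used.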

Additional observations from a re-analysis of the deposited data

How the results depend on the processing

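No paired analysis was possible because only 1 library stands for each treatment, and for the same reason no replicate could be left out. Of 54 values recomputed under 9 settings, 31 stayed within the interval or, for counts, within 1.5 times of the value reported. A −log10 q of 2 or more as a condition moved the share in first introns to 10.7% (abiraterone) and 11.9% (Romidepsin), the median distance to 24453 and 25938 bp, the median width to 374 and 440 bp, the host genes to 1209 and 272, the highest count per gene to 11 (KCND2) and 3 (CDH12, EPB41L4A and LRRC4C), the overlap with the other list to 0.22% and 1.34%, and the genes in both lists to 122. Fewer peaks remain under that setting, and their own counting error was left out of this comparison. Such moves, as in the share in first introns, can therefore lie within that error. Gene ranks in the Romidepsin list rest on peaks below this threshold. Without transcripts of 1 intron the shares in first introns were 10.2% and 10.0%. Measured from the host transcript's own start, the median distances were 32363 and 29988 bp, and over hosts with a gene identifier, a setting added after seeing the data, 22094 and 20456 bp. Requiring 50% of both peaks to overlap left 1.29% and 0.964%, where 1.29% of all abiraterone and 0.954% of all Romidepsin peaks remained. A −log10 q of at least 1.3 was reached by 89.0% and 12.6% of first-intron peaks. Over all peaks, the lower quartile was 1.57 in the abiraterone list and the upper quartile 1.29 in the Romidepsin list, on either side of 1.3. Counting peaks of a host gene under 1 kb apart as 1 site, a setting chosen after seeing the data, gave highest counts of 29 (PDE4D) and 36 (OPCML). Assigning peaks to the nearest gene left PDE4D (31) and OPCML (42) in the lead, but KCND2 (16) and ASIC2 (11) left the 6 leading genes of the abiraterone list, and NAV2 (14), KCNIP1 (22) and HS6ST3 (23) those of the Romidepsin list. Leaving out chromosome Y moved none of the values.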

Other observations

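First-intron peaks often came in close company. Of the abiraterone first-intron peaks, 29.7% (28.6 to 30.7%) had another peak in a first intron of the same gene less than 1 kb away, and 18.9% (18.1 to 19.7%) of the Romidepsin ones did. Later introns gave 29.1% and 16.1%. Peaks with such a neighbour were narrow, with a median width of 126 bp against 376 bp for the others in the abiraterone list and 175 against 358 bp in the Romidepsin list. In the abiraterone list 17.7% of them (16.2 to 19.4%) reached a −log10 q of at least 2, against 27.1% (25.9 to 28.4%) of the others; in the Romidepsin list the shares were 2.31% and 3.19%, with overlapping intervals. Counted as sites at least 1 kb apart, the 7452 abiraterone peaks became 6318 and the 9850 Romidepsin peaks 8884. KCND2 then had 23 sites in the abiraterone list and 5 in the Romidepsin list, RORA 22 and 33, and OPCML 15 and 36. These values were chosen after the data were seen.

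Per gene length the order of genes was another. Over the host genes with known limits there were 1.28 abiraterone and 1.52 Romidepsin first-intron peaks per 100 kb of gene. Among genes with at least 10 such peaks, RASAL2, a regulator of RAS signalling, was densest in the abiraterone list with 7.97 per 100 kb. The median over genes with at least 10 peaks was 2.42 per 100 kb in the abiraterone list and 3.20 in the Romidepsin list. KCND2 had 6.29 per 100 kb for abiraterone against 1.05 for Romidepsin, and KCNIP1 had 4.44 against 9.14. Both genes were chosen by their counts, from which these densities are computed, so the densities are not separate support. RASAL2 was named after its value was seen.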
